A study of Mus musculus with 132 samples.

Results

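The immediate early genes described here were Fos, Fosb, Fosl2, Jun, Junb, Jund, Egr1, Egr2, Ier2 and Atf3. They were taken by symbol from the poly(A)-minus RNA-seq count table, and all 10 were found among its 25146 genes. The 23 libraries came from an in vitro differentiation of mouse embryonic stem cells (mESCs) of the line E14-TG2a to blood. At day 0 there were 2 libraries of unsorted, undifferentiated wild-type mESCs, labelled technical replicates. Flk1+ mesoderm was sorted at day 4 (3 wild-type, 3 P1-CTCF-KO and 3 P2-CTCF-KO libraries), and CD41+ hematopoietic progenitor cells (HPCs) at day 7 (4, 3 and 5 libraries). P1-CTCF-KO clones carry a CRISPR/Cas9 deletion of the CTCF site beside the distal (P1) promoter of Runx1, and P2-CTCF-KO clones one beside the proximal (P2) promoter, with 3 clones of each. Wild-type sorted cells were of 3 clones, named B9.3, C6.1 and C8.1. E9.1 names a different clone in P1-CTCF-KO than in P2-CTCF-KO. Of the clones B9.3, D10.1 and D2.1, 2 HPC libraries each were made, and these are not independent clones. Libraries of 1 group thus differ by clone or by repeat, and p-values measure only the spread between them, part of which may be technical.

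Immediate early genes are switched on within minutes of a growth factor, serum or stress signal, from factors already present in the cell and with no need for new protein. Kinase cascades act on serum response factor with its ternary complex partners at CArG boxes, and on CREB and its relatives at cAMP response elements. Fos and Jun proteins pair to form AP-1, Egr proteins are zinc-finger factors, and most of these transcripts decay quickly. Tissue dissociation and cell sorting are known to induce several of them. Poly(A)-minus RNA includes nascent transcripts, and the counts cover exons and introns, so a level here holds transcription that is under way as well as other RNA without a poly(A) tail.

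The cells were disaggregated with trypsin and sorted by flow cytometry at the mesoderm and HPC stages, whereas the undifferentiated culture was not sorted. Ribosomal depletion is named in the methods for the undifferentiated cells and for the 416B line alone. The media differed too. Undifferentiated mESCs grew with serum and leukemia inhibitory factor. Mesoderm formed in serum-free medium with BMP-4, bFGF and Activin A, and HPCs formed with SCF and VEGF. Differentiation, medium, sorting and library preparation therefore cannot be told apart in any comparison with undifferentiated mESCs. Between mesoderm and HPCs, stage and medium cannot be told apart. In these bulk samples, fewer cells of a type and less RNA per cell cannot be told apart either.

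Between 68.1% and 91.0% of each library's counts fell on ribosomal or multi-locus entries. The other genes held 4858660 and 7748567 counts in undifferentiated mESCs, 1897917 to 2288976 in mesoderm and 878966 to 1584401 in HPCs. Levels are given as normalised CPM, with library sizes scaled by TMM (trimmed mean of M values). The scaled sizes were 101943063 and 183175642 for undifferentiated mESCs, 8233775 to 24289715 for mesoderm and 4931533 to 14330602 for HPCs. The TMM factors were 7.556 and 4.971 for the first and second undifferentiated library. In sorted libraries they were 0.3806 to 1.192. Levels in undifferentiated mESCs, and every comparison with them, therefore rest on this scaling. A single count was worth 0.00546 to 0.00981 CPM in undifferentiated mESCs, and up to 0.122 CPM in mesoderm and 0.203 CPM in HPCs, so low values in sorted cells are coarse. The stages carried their defining markers. Kdr, which encodes Flk1, had a mean of 27.2 CPM in wild-type mesoderm against 0.0928 and 0.108 in the undifferentiated libraries, and Itga2b, which encodes CD41, had 28.4 CPM in wild-type HPCs against 0.910 in wild-type mesoderm. HPCs were gated against CD45 and Ter119. Ptprc, the gene of CD45, reached at most 8 counts in any HPC library. The sum over the 4 leukocyte genes listed with it was 1.06 to 11.9 CPM in HPCs against 0 to 0.696 CPM in mesoderm, and the erythroid marker list summed to 27.6 to 196.0 CPM in HPCs.

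Promoter sequence is shown for the 5 members called between stages (Fos, Fosl2, Jun, Jund and Ier2) and for Fosb, which was not called but varied most closely with Fos. The windows are the 250 bases before the annotated start in mm9 (NCBIM37), read on the strand of the gene. Capitals mark matches, on either strand, to TGACG (the core of the cAMP response element, abbreviated CRE), TATAAA (the TATA box), GGGCGG (the GC box), TGANTCA (the AP-1 site) and the CArG box. For Fos, an accessible peak further upstream in mesoderm is also printed, because it holds a CArG box.
Fos upstream peak, chr12:86814471-86814566, plus strand: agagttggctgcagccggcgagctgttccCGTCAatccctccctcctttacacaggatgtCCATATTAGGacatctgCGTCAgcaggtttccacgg
Fos, chr12:86814590-86814839, plus strand: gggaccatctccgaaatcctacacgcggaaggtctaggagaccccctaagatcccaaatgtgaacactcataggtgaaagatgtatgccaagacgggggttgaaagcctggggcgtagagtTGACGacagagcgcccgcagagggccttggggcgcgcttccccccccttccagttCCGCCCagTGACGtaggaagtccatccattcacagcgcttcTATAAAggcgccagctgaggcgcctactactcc
Fosb, chr7:19895395-19895644, minus strand: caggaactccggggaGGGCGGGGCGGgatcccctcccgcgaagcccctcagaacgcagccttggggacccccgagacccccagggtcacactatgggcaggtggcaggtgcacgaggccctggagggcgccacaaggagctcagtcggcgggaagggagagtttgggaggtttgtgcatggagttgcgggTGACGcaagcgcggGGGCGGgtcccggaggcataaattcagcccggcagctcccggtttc
Fosl2, chr5:32438595-32438844, plus strand: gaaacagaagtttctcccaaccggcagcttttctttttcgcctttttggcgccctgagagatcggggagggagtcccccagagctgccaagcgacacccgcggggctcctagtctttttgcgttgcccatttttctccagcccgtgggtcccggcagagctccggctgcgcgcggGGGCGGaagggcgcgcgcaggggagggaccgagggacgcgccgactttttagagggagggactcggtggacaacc
Jun, chr4:94718914-94719163, minus strand: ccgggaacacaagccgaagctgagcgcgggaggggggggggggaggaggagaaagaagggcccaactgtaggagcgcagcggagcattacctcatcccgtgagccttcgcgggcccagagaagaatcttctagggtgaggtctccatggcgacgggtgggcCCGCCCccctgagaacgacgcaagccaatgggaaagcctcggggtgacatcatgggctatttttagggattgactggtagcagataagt
Jund, chr8:73221388-73221637, plus strand: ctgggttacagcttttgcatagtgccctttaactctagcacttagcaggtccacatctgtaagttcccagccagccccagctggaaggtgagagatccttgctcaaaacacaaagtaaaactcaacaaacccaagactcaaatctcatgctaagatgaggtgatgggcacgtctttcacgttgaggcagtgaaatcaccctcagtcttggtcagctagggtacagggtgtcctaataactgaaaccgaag
Ier2, chr8:87186752-87187001, minus strand: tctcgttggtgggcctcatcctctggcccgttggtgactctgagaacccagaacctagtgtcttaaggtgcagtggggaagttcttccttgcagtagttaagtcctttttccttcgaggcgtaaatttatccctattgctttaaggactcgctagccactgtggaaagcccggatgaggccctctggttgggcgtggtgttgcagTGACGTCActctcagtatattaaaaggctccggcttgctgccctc

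The Fos peak spanned 369 to 274 bases before the start and held 1 CArG box and 2 matches to TGACG. HPCs also had a peak there, 374 to 301 bases before the start, which ended within that CArG box. The Fos promoter window held TGACG at 129 and 66 bases and a TATA box at 33 bases before the start, each counted from the first base of the match. The Fosb window held TGACG at 60 bases, and the Ier2 window a palindromic TGACGTCA that was counted on both strands, at 45 and 42 bases. The Jun window had no match to TGACG and 1 GC box, at 89 bases. The Fosl2 window held 1 GC box, at 75 bases, and the Jund window held 0 of these motifs. Peaks outside these windows did hold some. A Jund peak 977 to 1234 bases after the annotated start in mesoderm, and 970 to 1231 in HPCs, held 3 matches to TGACG and 3 GC boxes. A palindromic TGACGTCA, counted on both strands, was among them. In mesoderm a Jun peak 425 to 248 bases before the start held 2 matches to TGACG. A Fosl2 peak 814 to 425 bases before the start held 1. Among the 10 members, TGACG was present in 6 windows, against 19.7% of 24957 windows over all genes. The GC box was also present in 6 (all genes, 40.3%), TATAAA in 1 (all genes, 12.2%), the CArG box in 1 (Egr1; all genes, 1.29%) and the AP-1 site in 0 (all genes, 6.23%). No match says only that these letters are not in this window.

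Every member had accessible chromatin within 1000 bp of its annotated start in mesoderm. ATAC-seq was made from a reporter derivative of E14-TG2a, which carries Venus at Runx1 and an mCherry transgene driven by the +23 enhancer of Runx1, and is labelled wild type. In its Flk1+ cells all 10 members had a peak in that window, whereas 55.2% of all genes did. Within 250 bp it was 6 of 10, against 48.7% of all genes. In CD41+ cells 8 of 10 had a peak within 1000 bp, against 37.1% of all genes, and 5 of 10 within 250 bp, against 32.1%. Ier2, a small nuclear regulator of transcription, had a 94-bp peak over its start in mesoderm and its nearest HPC peak at 1183 bp. Egr2, a zinc-finger factor, had 2 peaks 567 bp and further inside the gene in mesoderm, and its nearest HPC peak lay at 1947 bp. The peak over the Fos start was 198 bp wide in mesoderm and 86 bp in HPCs, and the peak over the Jun start was 285 and 269 bp. At Jund the nearest peaks lay 634 bp (mesoderm) and 970 bp (HPCs) inside the annotated gene. The mesoderm list holds 76766 peaks and the HPC list 29037, each called on merged libraries, so the lists differ in number as a whole and cannot be compared with a test. CTCF peaks of the 416B line, a hematopoietic progenitor line, lay within 1000 bp of the start of Fosb (370 bp away) and Jun (987 bp away), 2 of 10 members against 12.8% of all genes.

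All members but Egr2, 9 of 10, passed the filter on low counts, and the same 9 passed it over the 21 sorted libraries alone. Per kb of gene span, Jun, a partner of Fos proteins in AP-1, had the highest mean level in mesoderm (1.38 CPM per kb ± 0.857, SD, n = 9) and in HPCs (1.05 ± 0.280, n = 12). In undifferentiated mESCs Jun stood sixth at 0.357 ± 0.0522 (n = 2), and Ier2 was first at 0.852 ± 0.103. The order in mesoderm was Jun, Ier2, Egr1, Fosb, Fos, Jund, Junb, Fosl2, Atf3 and Egr2. Among these neighbours only Junb and Fosl2 were separated by more than the larger of their SDs. In HPCs the order was Jun, Jund, Fosb, Junb, Egr1, Ier2, Fos, Fosl2, Atf3 and Egr2, and Fos lay below Ier2 by 0.200 CPM per kb, more than either SD. Fos and Fosl2, and Atf3 and Egr2, were likewise separated, and no other neighbours in HPCs were. In undifferentiated mESCs the order was Ier2, Junb, Jund, Egr1, Fos, Jun, Fosb, Fosl2, Atf3 and Egr2. Its SDs come from 2 technical replicates and hold no spread between cultures, so neighbours were not compared there. Spans include introns, so Fosl2 (21.4 kb) and Atf3 (13.04 kb) are averaged over far longer genes than Ier2 (1.52 kb) or Junb (1.84 kb).

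Egr2 was close to undetected. It had 10 and 2 counts in the undifferentiated libraries, 0 to 2 counts in each mesoderm library and 0 or 1 in each HPC library, and it was not tested. In the 9 HPC libraries at 0, the limit that 0 counts allow (3 counts) was 0.209 to 0.384 CPM per library. This limit covers counting error only.

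**Figure D1:**
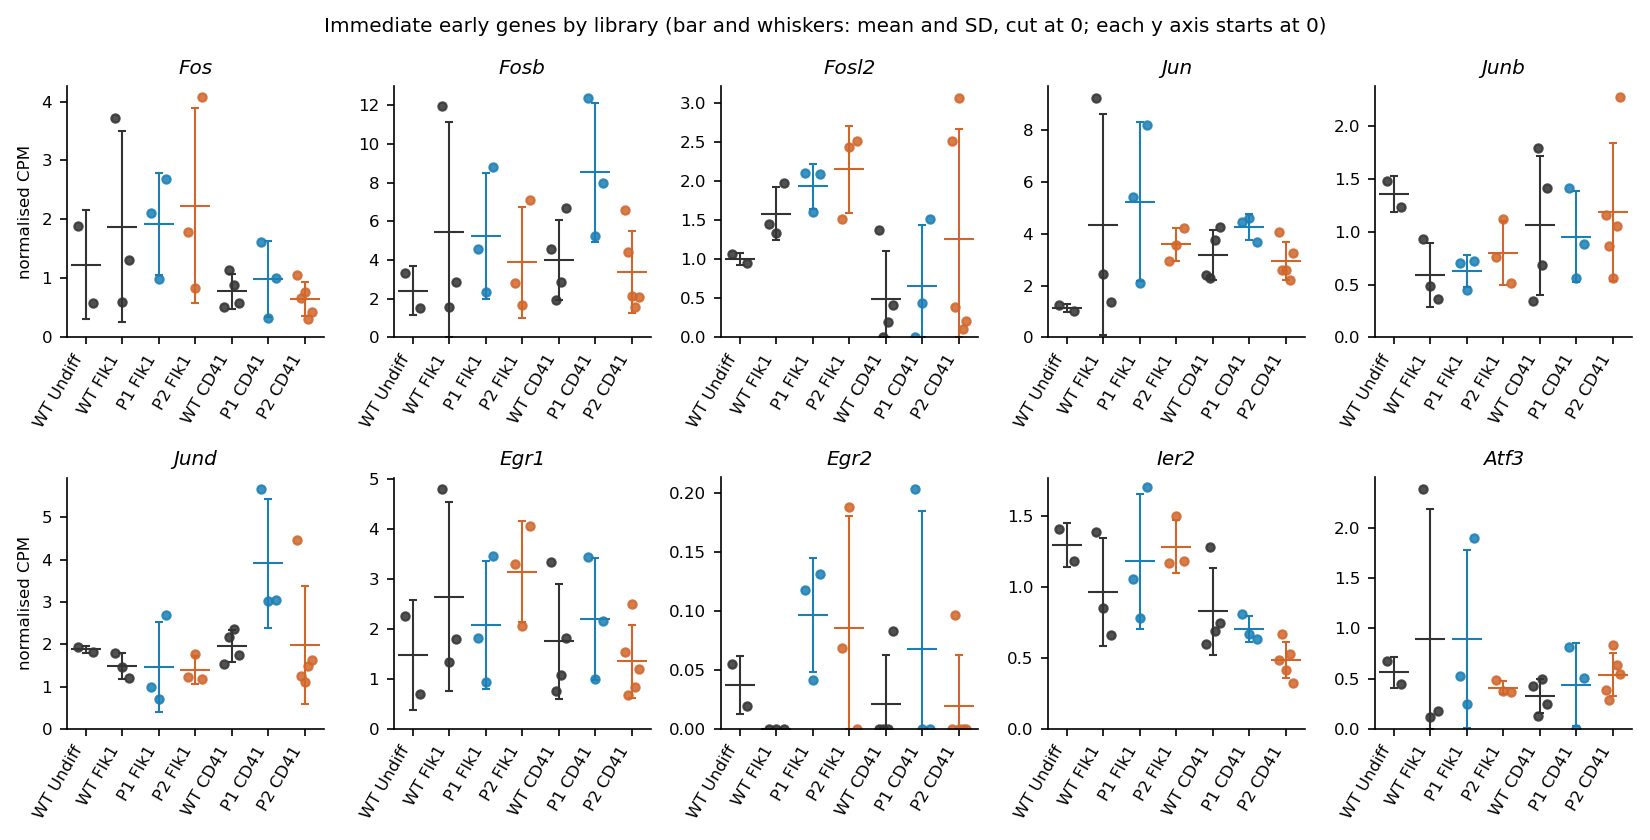
Normalised CPM of the 10 members in each of the 23 libraries (points) with group means and SDs, by genotype and stage (P1 and P2, the CTCF knock-outs). In wild-type and P1-CTCF-KO mesoderm 1 library each stands high for Fosb, Jun, Egr1 and Atf3, and HPC values of Fos lie between 0.317 and 1.62 CPM.

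From undifferentiated mESCs to mesoderm, Jun rose in wild-type cells, and it was the only member called. A call needed a log2 fold change beyond 1 in either direction and, in the edgeR quasi-likelihood test, a Benjamini-Hochberg adjusted p below 0.05 over 12543 genes. Jun had 1.26 and 1.02 CPM in the undifferentiated libraries, and 9.23 (B9.3), 2.43 (C6.1) and 1.38 (C8.1) in mesoderm. Every mesoderm library lay above both undifferentiated libraries, but C8.1 by little. These levels depend on the TMM scaling: raw counts of Jun were 230 and 104 in the undifferentiated libraries and 159, 20 and 23 in mesoderm. The log2 fold change was 1.95 (SE 0.567, adjusted p = 0.0153). The call was lost without the B9.3 mesoderm library, and also without either undifferentiated library. Without B9.3 the log2 fold change was 0.70 (adjusted p = 0.334). With the technical replicates summed to 1 sample, an alternative added after the data were seen, it was 1.91 (adjusted p = 0.110). In this comparison 22.8% of all genes were called.

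The other members did not pass. Fosb, whose protein pairs with Jun, had a log2 fold change of 1.21 (adjusted p = 0.248 by edgeR), with 3.33 and 1.51 CPM in undifferentiated mESCs against 11.9 (B9.3), 1.58 (C6.1) and 2.88 (C8.1) in mesoderm. These groups overlapped, and C6.1 and C8.1 lay within the range of the undifferentiated libraries. Junb, a less active relative of Jun, was the member with the most negative estimate (−1.16, adjusted p = 0.118), at 1.48 and 1.24 CPM against 0.928, 0.486 and 0.360. All its mesoderm values were below both undifferentiated values. The median log2 fold change of the 9 tested members was 0.67, and that of all genes −0.16.

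HPCs were compared with the same undifferentiated libraries. Jun was again the 1 member called, at a log2 fold change of 1.48 (SE 0.546, adjusted p = 0.0301 by edgeR), with 2.41, 2.31, 3.75 and 4.25 CPM in the wild-type HPC libraries. After scaling, these values did not overlap the undifferentiated ones. The call ended when the C6.1 or C8.1 library was left out (adjusted p = 0.0595 and 0.0777), or the technical replicates were summed (adjusted p = 0.131). Of all genes, 41.3% were called. The remaining 8 members had log2 fold changes of −0.91 (Fosl2) to 0.74 (Fosb) and adjusted p of 0.110 or more. As the undifferentiated libraries serve as control for both stages, the Jun results are not independent.

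**Figure D2:**
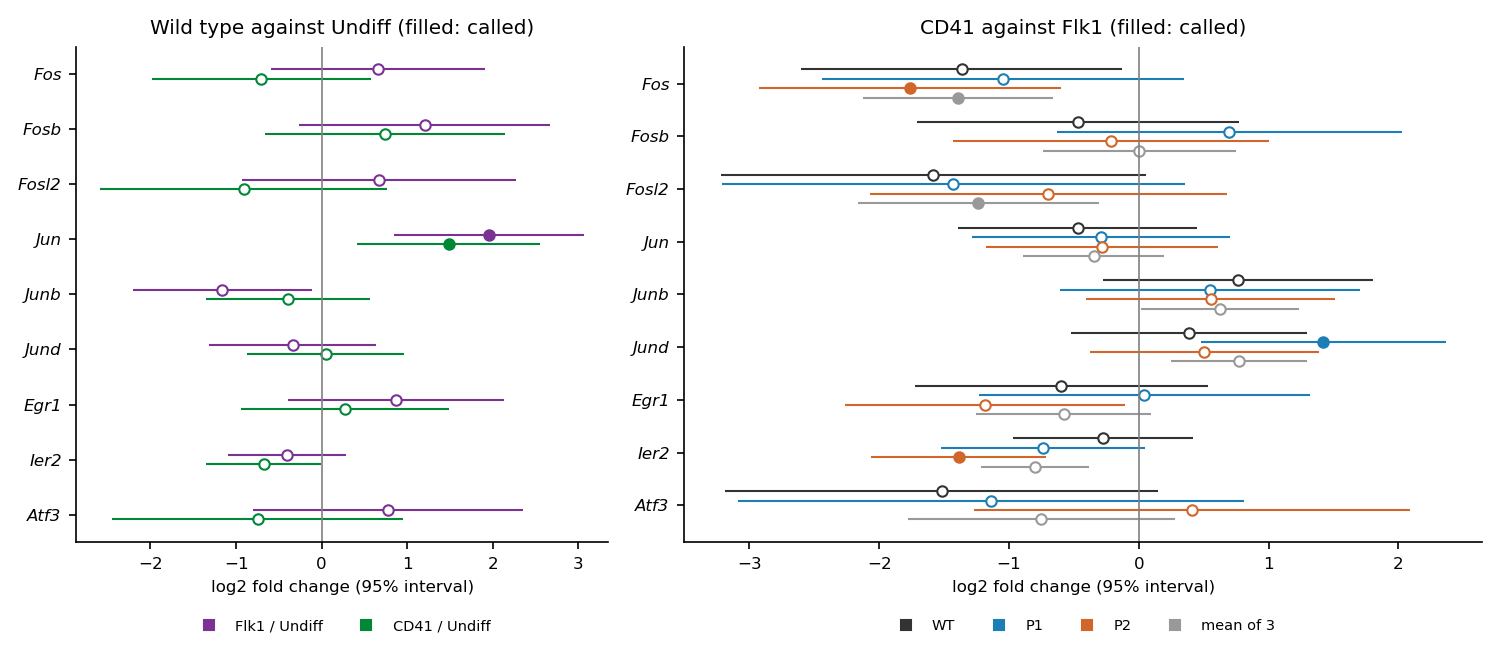
Log2 fold changes (points) with 95% intervals from the SE of the 9 tested members, wild-type stages against undifferentiated mESCs on the left and HPCs against mesoderm per genotype and averaged on the right. Filled points were called: Jun in both comparisons on the left, and on the right Fos and Ier2 in P2-CTCF-KO, Jund in P1-CTCF-KO, and Fos and Fosl2 in the mean of 3 genotypes.

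The technical replicates of undifferentiated mESCs differed in a subset of the members. Fos had 346 counts (1.89 CPM) in the first and 59 (0.579 CPM) in the second, a 3.26-fold ratio after normalisation. Egr1 had 414 and 71 counts (3.24-fold) and Fosb 610 and 154 (2.20-fold). Ratios were taken for 11524 genes with at least 50 counts in the pair and counts in both libraries. Only 5 of them had a ratio as high as that of Fos: Il3ra, Edil3, Slc39a13, Ptprm and Fos itself. They are named here because their ratios are the highest. Egr1 came next. Over all these genes the ratio had a median of 1.02 and ran from 0.675 to 1.47 between the 5th and 95th percentiles. Egr2 had 10 and 2 counts (2.78-fold) and Atf3, a stress-responsive relative of Fos and Jun, 123 and 46 (1.49-fold). Fosl2, Jun, Junb, Jund and Ier2 had ratios of 1.07 to 1.23, within that range. A comparison of Fos, Fosb or Egr1 with undifferentiated mESCs therefore rests on 2 libraries that differ by more than 2.20-fold.

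**Figure D3:**
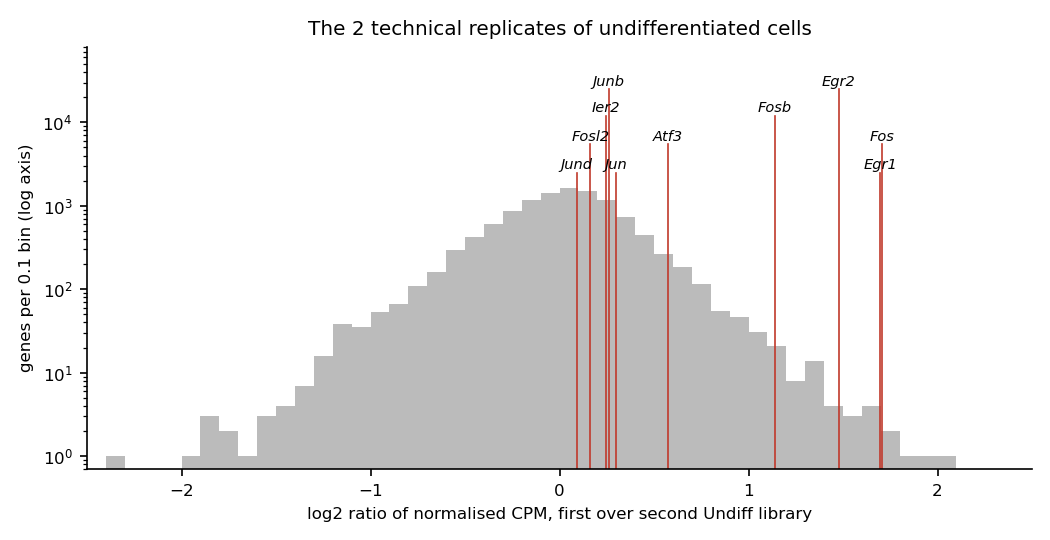
Distribution over 11524 genes of the log2 ratio between the first and second undifferentiated library (bars, log axis), with the 10 members marked by lines. Fos, Egr1, Egr2 and Fosb lie at the far right, with ratios of 3.26, 3.24, 2.78 and 2.20, and the other members lie nearer the centre.

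From mesoderm to HPCs, Fos, the founding member of AP-1, was lower in all 3 genotypes, and the drop was called in P2-CTCF-KO cells. P2-CTCF-KO mesoderm had 1.79 (D10.1), 0.844 (D2.1) and 4.07 CPM (E9.1). The 5 HPC libraries ran from 0.317 to 1.07 CPM with a median of 0.673. The groups overlapped, since the D2.1 mesoderm value was below the highest HPC value. The log2 fold change was −1.76 (SE 0.593, adjusted p = 0.0269 by edgeR). Without the E9.1 mesoderm library it was −1.01 (adjusted p = 0.281), and with the clone as a block −1.47 (adjusted p = 0.0513). In wild-type cells the estimate was −1.36 (adjusted p = 0.115), from 3.71, 0.607 and 1.32 CPM in mesoderm to 0.515, 1.15, 0.888 and 0.583 in HPCs, and in P1-CTCF-KO cells −1.05 (adjusted p = 0.281). Averaged over the 3 genotypes, a comparison added after the data were seen, Fos was lower by 1.39 on the log2 scale (the fold change was −1.39, SE 0.373, adjusted p = 0.00343), and the call held in each of 23 fits that left out 1 library. Without both mesoderm libraries that stand apart (B9.3 of wild type and E9.1 of P1-CTCF-KO) it was −0.97 (adjusted p = 0.0378), short of the fold limit, and the call was lost.

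Ier2 fell in P2-CTCF-KO cells. Its mesoderm libraries had 1.17, 1.501 and 1.18 CPM (16 or 17 counts each), and the HPC libraries ran from 0.326 to 0.673 CPM with a median of 0.485 (3 to 7 counts). The groups did not overlap. The log2 fold change was −1.39 (SE 0.344, adjusted p = 0.00396 by edgeR), and it was called in all 9 alternatives and all 23 fits that left out 1 library. Wild-type cells had 1.39, 0.850 and 0.660 CPM in mesoderm and 0.601, 1.28, 0.690 and 0.750 in HPCs, with a log2 fold change of −0.27 (adjusted p = 0.608). In P1-CTCF-KO cells it was −0.74 (adjusted p = 0.172). The difference between the P2-CTCF-KO and wild-type stage effects was −1.11 (SE 0.497, unadjusted p = 0.0357, adjusted p = 0.675 by edgeR), so the effect was not shown to differ between the genotypes. Over the mean of 3 genotypes the log2 fold change of −0.80 had an adjusted p of 0.00304 and missed the fold limit.

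Jund, the most steadily expressed Jun protein in many cells, rose in P1-CTCF-KO cells. The mesoderm libraries had 0.998 (E7.1), 0.700 (E7.2) and 2.69 CPM (E9.1), and the HPC libraries 5.68, 3.02 and 3.04. All HPC values lay above all mesoderm values, E9.1 by little. The log2 fold change was 1.42 (SE 0.481, adjusted p = 0.0280 by edgeR). The call ended without the E7.1 or the E7.2 mesoderm library (adjusted p = 0.104 and 0.127) or the E7.1 HPC library (adjusted p = 0.143), and the estimate then ranged from 1.06 to 1.22. In wild-type and P2-CTCF-KO cells the estimates were 0.39 and 0.51 (adjusted p = 0.580 and 0.412). Junb had positive estimates in all 3 genotypes (0.55 to 0.77), none of them called.

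Fosl2, the Fos relative of the longest gene here, was lower in HPCs in all 3 genotypes without a call in any of them when all libraries were used (log2 fold changes of −1.58 in wild type, −1.43 in P1-CTCF-KO and −0.70 in P2-CTCF-KO). In wild type it was called without the first B9.3 HPC library (−2.85, adjusted p = 0.0409 by edgeR) and with libraries of a clone summed (−1.71, adjusted p = 0.0383). In mesoderm its 9 values were even, from 1.34 to 2.52 CPM with a median of 1.98. In HPCs they ran from 0 to 3.07 CPM with a median of 0.401, and 2 of 12 libraries had 0 counts. Averaged over the genotypes the log2 fold change was −1.24 (SE 0.474, adjusted p = 0.0329 by edgeR). The call was lost in 8 of 23 fits that left out 1 library, with adjusted p up to 0.0684, with the clone as a block (−1.43, adjusted p = 0.0553) and without the 2 mesoderm libraries that stand apart (−1.24, adjusted p = 0.0564). Jun (−0.47 to −0.28), Fosb (−0.47 to 0.70), Egr1 (−1.18 to 0.04) and Atf3 (−1.52 to 0.41) were not called in any genotype.

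Of all genes, 23.1% were called between mesoderm and HPCs in wild type, where 0 of 9 tested members were, with 1 at an unadjusted p under 0.05 and 0 called by DESeq2. In P1-CTCF-KO cells 26.8% of all genes and 1 of 9 members were called, in P2-CTCF-KO cells 25% and 2 of 9, and in the mean of 3 genotypes 33.5% and 2 of 9. These shares of members lie at or below the background. The median log2 fold change of the members was −0.47, −0.29 and −0.28 in the 3 genotypes, beside −0.02, −0.16 and 0 for all genes.

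Between genotypes of the same stage, no member was called. The shares of all genes called in mesoderm were 0% for P1-CTCF-KO against wild type, 0.144% for P2-CTCF-KO against wild type and 0.0399% for P2-CTCF-KO against P1-CTCF-KO. The 0.144% is 18 genes by edgeR, where DESeq2 called 111. The paper reports more genes for this comparison, by DESeq2 at its own thresholds. By edgeR 0%, 0% and 0% were called in HPCs. For the difference of the stage effect from wild type the share was 0% in P1-CTCF-KO and 0.0159% in P2-CTCF-KO. Over these 8 comparisons, 4 of 72 tests of members had an unadjusted p under 0.05 and the lowest adjusted p was 0.456 by edgeR, and DESeq2 called 0 members. Of all genes, 1.47% to 10.9% had an unadjusted p under 0.05 in these comparisons. Jund in HPCs accounted for 2 of the 4. Its log2 fold change was 0.97 in P1-CTCF-KO against wild type (approximate 95% interval 0.09 to 1.86). In P2-CTCF-KO against P1-CTCF-KO it was −0.95 (−1.79 to −0.11). Wild-type HPCs had 1.55, 2.18, 2.37 and 1.75 CPM of Jund, below all 3 P1-CTCF-KO values. With the P2-CTCF-KO D10.1 library left out, which had 4.46 CPM, the second difference was −1.49 (adjusted p = 0.0299). The others were Fosb in P2-CTCF-KO against P1-CTCF-KO HPCs (−1.32, −2.52 to −0.12) and the Ier2 stage effect given above. The width of the intervals differed between members. For Atf3 they reached from −2.92 to 4.30, whereas for Ier2 they lay between −2.09 and 1.07 and for Jun between −1.50 and 1.53.

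Within mesoderm, 2 libraries of different genotypes stood high for most members. In wild-type B9.3, 8 of 9 tested members were above the median of the 9 mesoderm libraries, and in P1-CTCF-KO E9.1 all 9 were. Atf3 had 2.38 CPM (41 counts) in B9.3 and 1.90 CPM (29 counts) in P1-CTCF-KO E9.1, and 0.122 to 0.528 CPM in the other 7. Fosb had 11.9 and 8.78 CPM in these libraries and 1.58 to 7.11 in the others. Jun had 9.23 and 8.19 CPM, and 1.38 to 5.40 elsewhere. At the other end, P1-CTCF-KO E7.2 and wild-type C8.1 had 0 members above the median. The share of all genes above their mesoderm median in each library was not computed. These counts are therefore not shown to be particular to the members.

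The deviations of each library from its group mean on the log2(CPM + 1) scale describe this further. Over 36 pairs of members the median Pearson r was 0.677 in the 9 mesoderm libraries, with 22 pairs above 0.5, and 0.128 in the 12 HPC libraries, with 5 pairs above 0.5. The closest pair in mesoderm was Fos with Fosb (r = 0.975), and next Fosb with Egr1 (r = 0.967). In HPCs the same pairs had r = 0.399 and 0.4664. Fosl2 stood aside in mesoderm (r of −0.04 to 0.23 with the others). Without B9.3 and P1-CTCF-KO E9.1 the median over pairs in mesoderm was 0.327, with 10 pairs above 0.5, so part of the covariation rests on those libraries. Over all 21 sorted libraries the median over pairs of members was 0.412, beside −0.02 for members with the other genes compared. No such background was computed within a stage. HPC libraries also held fewer counts (Fos 3 to 11, against 5 to 64 in mesoderm), so counting error weighs more on r there. These are descriptions over few libraries that share clones and depth.

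**Figure D4:**
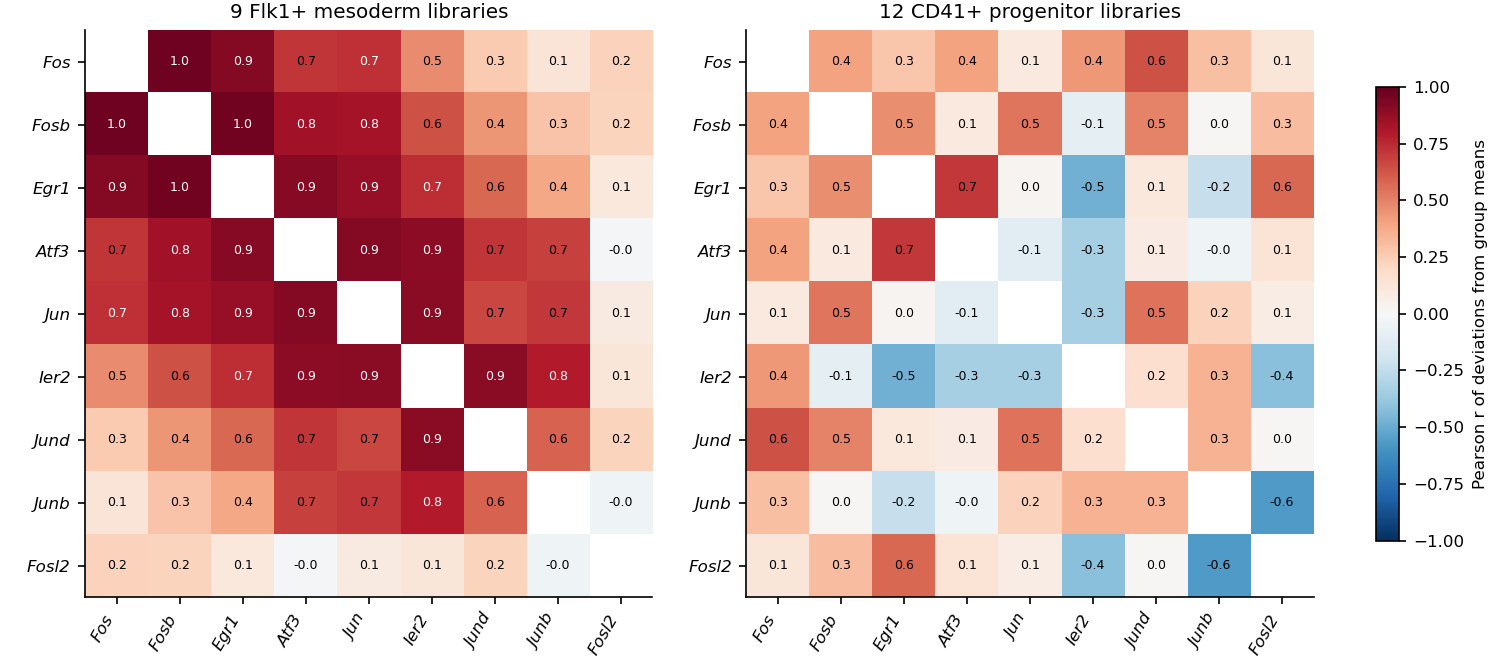
Pearson r between members of the deviations from group means, in 9 mesoderm libraries (left) and 12 HPC libraries (right). In mesoderm Fos, Fosb, Egr1, Atf3 and Jun form a block with r from 0.712 to 0.975 and Fosl2 stands apart, and in HPCs 5 of 36 pairs exceed 0.5. No background of other genes was computed within a stage.

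Markers of endothelium moved with most of the members in mesoderm. The sum of Cdh5, Pecam1, Tie1 and Tek, genes of endothelial junctions and receptors, was 66.9 CPM in B9.3, 41.6 in P1-CTCF-KO E9.1 and 15.2 in P1-CTCF-KO E7.1. It was 1.46 and 8.28 CPM in the other wild-type libraries, 3.79 CPM in P1-CTCF-KO E7.2 and 0.482 to 0.563 CPM in the 3 P2-CTCF-KO libraries. The sum hardly varied within P2-CTCF-KO, so covariation with it can only come from the wild-type and P1-CTCF-KO libraries. Over the 9 deviations from group means, r with this sum was 0.931 for Atf3 (Spearman's rho 0.850), 0.899 for Egr1 (0.800), 0.858 for Fosb (0.817), 0.849 for Jun (0.883), 0.794 for Ier2 (0.883) and 0.770 for Fos (0.750). It was lower for Junb at 0.639 (0.717), Jund at 0.610 (0.483) and Fosl2 at 0.236 (0.217). With the 2 libraries farthest from the median of the sum left out, r was 0.885 for Atf3, 0.860 for Jun and 0.521 for Fos. Within P2-CTCF-KO, Fos ran from 0.844 to 4.07 CPM and Fosb from 1.69 to 7.11 CPM beside this level sum. P2-CTCF-KO E9.1 had the highest Fos of all mesoderm libraries (4.07 CPM), with 7.11 CPM of Fosb and 4.07 CPM of Egr1. Its endothelial sum was 0.518 CPM and its Atf3 was at 0.370 CPM. The endoderm list also moved with the members (median r 0.816), but its sum did not exceed 1.57 CPM, with Ttr at 0 in every library. The median r was 0.684 with the cardiac and smooth muscle list, 0.504 with the Flk1 mesoderm list, 0.484 with the leukocyte list and 0.793 with the inducing kinases and factors. It was negative with the hematopoietic progenitor list (−0.46) and with the pluripotency list (−0.55, where all 9 members were negative). The part of these cell types in the result was not tested. The median r of the members was −0.08 with the scaled library size, 0.270 with the summed heat shock genes, a list of chaperones at 84.5 to 127.9 CPM in mesoderm, and 0.817 with the 38 other immediate early genes listed.

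**Figure D5:**
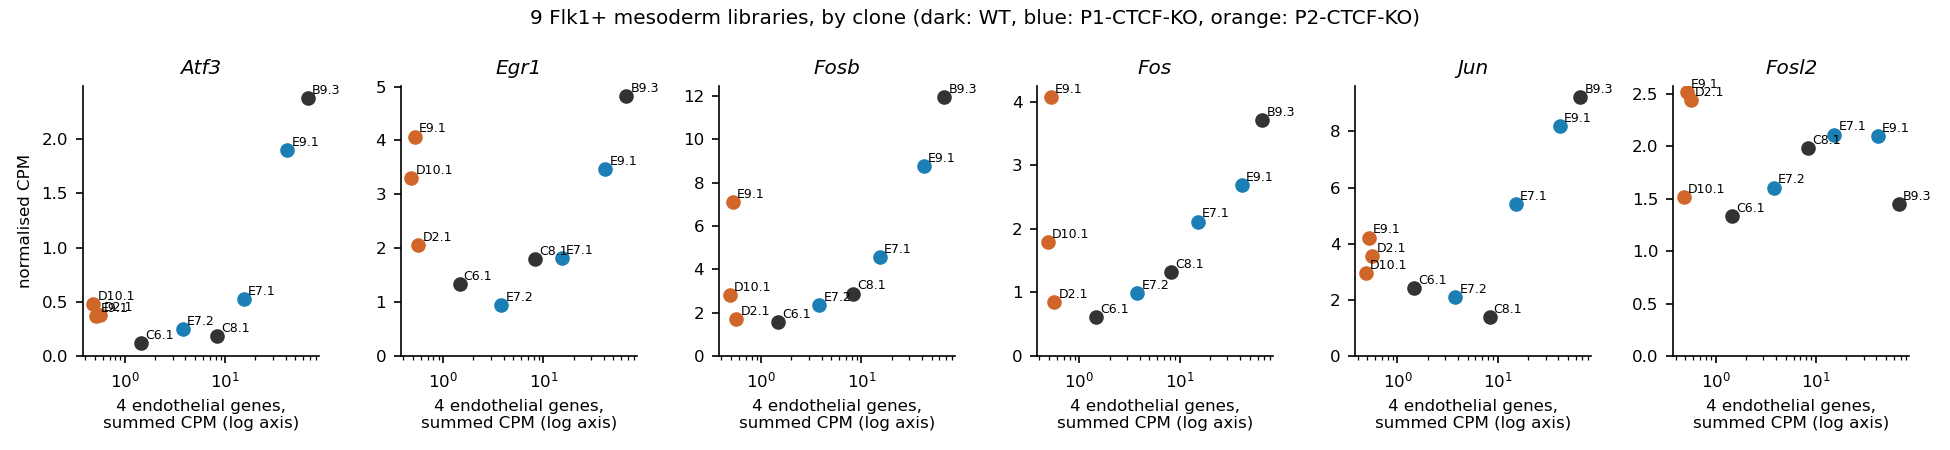
Level of 6 members against the summed CPM of 4 endothelial genes (log axis) in the 9 mesoderm libraries, labelled by clone and coloured by genotype. Atf3, Jun and Fosb are highest in wild-type B9.3 and P1-CTCF-KO E9.1, where the endothelial sum is 66.9 and 41.6 CPM, while P2-CTCF-KO E9.1 has high Fos and Egr1 at a sum of 0.518 CPM.

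In HPCs a different member stood out. Fosl2 had 16, 26 and 44 counts in the first libraries of B9.3, D10.1 and D2.1, and 0, 4 and 1 counts in the second libraries of the same clones. In CPM this was 1.37 against 0 in B9.3, 2.52 against 0.385 in D10.1 and 3.07 against 0.106 in D2.1. Egr1 was also higher in each of these first libraries, at 3.35, 1.55 and 2.51 CPM against 0.768, 0.673 and 0.845. Ratios were taken for genes with at least 50 counts in the pair and counts in both libraries. Genes that fell to 0 in a second library were thus left out, although their ratios are the highest. A ratio as high as that of Egr1 was found for 125 of 4115 such genes in B9.3, for 416 of 4152 in D10.1 and for 598 of 4771 in D2.1. For Fosl2 the ratio was reached by 84 of these genes in D10.1 and by 42 in D2.1. Egr1, Fosl2 and Atf3 themselves had fewer than 50 counts in each pair, so their ratios are less precise than those of these genes. Fosb was higher in the first libraries too, by 2.37, 1.49 and 1.37-fold, and Atf3 by 3.36, 1.34 and 1.32-fold on 12 counts or fewer. Other members went the other way. Ier2 was lower in each first library, at 0.601, 0.485 and 0.419 CPM against 1.28, 0.673 and 0.528, on 5 to 10 counts. Junb and Jund were lower in the first libraries of B9.3 and D2.1 and higher in that of D10.1. Fos was lower in the first library of B9.3 and higher in those of D10.1 and D2.1. Jun differed less than Egr1, by 1.04, 1.57 and 1.16-fold. The erythroid markers were lower in the first libraries, with sums of 56.9, 65.9 and 27.6 CPM there and 151.5, 176.5 and 175.4 in the second. The cardiac and smooth muscle list summed to 13.9, 11.5 and 10.3 CPM in the first libraries and to 1.02, 0.481 and 0.634 in the second, and the Flk1 mesoderm and endothelial lists were also higher in each first library. Over the 12 HPC libraries the deviations of Fosl2 and of the erythroid sum had r = −0.91 (Spearman's rho −0.78, and r = −0.85 without the 2 farthest libraries). With the cardiac and smooth muscle sum r was 0.872 for Fosl2 and 0.818 for Egr1, with the Flk1 mesoderm sum 0.778 and 0.814, and with the endothelial sum 0.721 and 0.680. For Egr1 r with the erythroid sum was −0.74 (rho −0.76) and for Jun 0.079. Fosb followed the hematopoietic progenitor list, which includes Itga2b, Gfi1b, Tal1 and Runx1, at r = 0.897 (rho 0.874). Over the 9 tested members, r in HPCs ran from −0.69 to 0.684 with the scaled library size (median −0.185). With the heat shock sum it ran from −0.85 to 0.179 (median −0.20). The part of maturation, of cell mixture or of library size in these values was not tested.

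Genes whose deviations were most like those of a member were sought among 8697 other genes at or above the mean level of the lowest tested member, over the 21 sorted libraries. Fos was nearest to Fosb (r = 0.786), Prkaa1 (0.774) and Itprip (0.770), and no other member had a fellow member among its 3 nearest genes. For Fosb these were Mef2a (0.894), Gas7 (0.885) and Vav3 (0.882), and for Jun Mef2c (0.884), Itsn2 (0.878) and again Mef2a (0.855). Egr1 was nearest to Cdc42ep1 (0.882), Col18a1 (0.879) and Cdc42bpb (0.868), Atf3 to Stab1 (0.889), Sorcs2 (0.879) and Galnt18 (0.873), and Fosl2 to Tns3 (0.902), Hs6st2 (0.899) and Lrp1 (0.899). The nearest genes of Junb, Jund and Ier2 were Tex14 (0.824), Agpat1 (0.824) and Slc39a7 (0.801).

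Other genes of the response were counted from lists. Of 38 other immediate early genes, 32 were tested, and between mesoderm and HPCs 3 rose and 6 fell in wild type, 3 and 8 in P1-CTCF-KO, and 2 and 8 in P2-CTCF-KO. Over all 12543 genes 1347 rose and 1555 fell in wild type, 1632 and 1733 in P1-CTCF-KO, and 1658 and 1483 in P2-CTCF-KO, the background for each list here. The median log2 fold change of the 32 was −1.07, −0.99 and −0.64. Btg2, an antiproliferative gene, rose in all 3 (1.77, 1.54 and 1.64). Myc, a driver of growth, had −1.19 in wild type, which was not called, and fell in P1-CTCF-KO (−2.30) and P2-CTCF-KO (−1.31). Klf6 and Mcl1 were not called in any of the 3. Against undifferentiated mESCs, 4 of the 32 rose and 6 fell in mesoderm, and 5 rose and 13 fell in HPCs. Of all genes 1302 rose and 1559 fell in mesoderm, and 2136 rose and 3040 fell in HPCs. Mcl1, a short-lived survival gene, fell in both (−1.44 and −1.84).

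Several feedback inhibitors of growth factor signalling fell in HPCs. Of 9 tested, 1 rose and 4 fell in wild type, 1 and 3 in P1-CTCF-KO, and 1 and 5 in P2-CTCF-KO, with medians of −1.39, −1.27 and −1.54. Over all genes 23.1%, 26.8% and 25% were called in either direction. Spry4, an inhibitor of receptor tyrosine kinase signalling, fell in all 3 genotypes, from group means of 2.40, 2.21 and 5.38 CPM in mesoderm to 0.0960, 0 and 0.306 CPM in HPCs. All 3 P1-CTCF-KO HPC libraries had 0 counts of Spry4. Spred1, of the same pathway, fell in P2-CTCF-KO (−1.54) and had −1.39 and −1.27 in the other genotypes, and Spred2 was not called. Spry2, its relative, named after its values were seen, fell by 3.30, 4.11 and 2.88 on the log2 scale. The gene that rose in each was Nab1, a corepressor of Egr proteins (1.73, 2.03 and 2.18). Of 22 inducing kinases and factors, 3 rose and 4 fell in wild type, 6 and 3 in P1-CTCF-KO, and 5 and 4 in P2-CTCF-KO. Mrtfa, a cofactor of serum response factor, rose in wild type (1.06) and P1-CTCF-KO (1.86) and had 0.99 in P2-CTCF-KO. Mapk14, which encodes p38, rose in P1-CTCF-KO (1.31) and P2-CTCF-KO (1.01). Mrtfb, a relative of Mrtfa, was not called.

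Among 10 AP-1 partners 6 were tested, and between mesoderm and HPCs 1 rose in wild type, 0 in P1-CTCF-KO and 1 in P2-CTCF-KO, while 0 fell. Atf2 and Atf4 had log2 fold changes of 0.11 to 0.59, and Mafg rose in wild type (1.31). Atf7 rose against undifferentiated mESCs in mesoderm (1.17) and in HPCs (1.34). Of 12 tested heat shock genes 0 rose between mesoderm and HPCs, and 2 fell in wild type, 6 in P1-CTCF-KO and 2 in P2-CTCF-KO, where 1555, 1733 and 1483 of all 12543 genes fell. Hsp90ab1 fell in each genotype (−1.09, −1.47 and −1.11). Hsp90aa1 and Hspd1 fell in P1-CTCF-KO (−1.23 and −1.67), and Hspa5 was not called. These lists were chosen with earlier results known, and no list was tested as a set. No gene of these lists was called in any comparison between genotypes.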

How the data were processed

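RNA was measured by poly(A)-minus RNA-seq in 23 libraries. The authors aligned reads with STAR to mm9 and deposited raw counts per gene from featureCounts, taken over exons and introns; the strand setting is not given in the sources used here, so overlapping and antisense genes cannot be separated. Peak lists of ATAC-seq and CTCF ChIP-seq were deposited by the authors as MACS2 coordinates from merged libraries, without scores, and only their positions were used. The table had 0 unused sample columns.

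Counts were fitted in 1 model of 7 groups in edgeR 4.0.16 (R 4.3.3, limma 3.58.1) with TMM, filterByExpr (minimum count 10), the quasi-likelihood test and Benjamini-Hochberg adjustment over 12543 genes. All adjusted p-values in the report come from edgeR unless DESeq2 (1.42.0) is named. CPM is the count over the TMM-scaled library size. Correlations use log2(CPM + 1). Intervals and limits for 0 counts (3 counts) cover counting error or the fitted spread only. The code was tested on simulated data.

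Alternatives were RLE size factors, no low-count filter, ribosomal and multi-locus entries removed (186 entries), DESeq2, separate fits, no fold limit, libraries of a clone summed, the clone as a block, and each library left out. After the data were seen, the mean of 3 genotypes, the undifferentiated libraries summed, and a fit without 2 mesoderm libraries were added. The clone numbers were not taken as pairs: deviations of a clone at both stages had r of −0.07 to 0.18 over 12543 genes.

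The members and lists were chosen with earlier results of these data known. All 10 members are named. Of each other list every gene was counted and the 4 with the highest mean CPM named (1 such gene is not reported here), and the 3 genes most like each member were taken by Pearson r over 21 sorted libraries. Promoter windows and motifs were read from the NCBIM37 (mm9) genome.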

Additional observations from a re-analysis of the deposited data

Results flagged for a closer look

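In groups of 4 or 5 libraries, the highest and lowest value of each member was compared with the others by Dixon's criterion. Of 22 groups tested, 3 held a library past the 95% critical value, and chance alone flags about 1 in 20 groups. Jund had 4.459 CPM in the D10.1 HPC library of P2-CTCF-KO, where the other 4 libraries had 1.12 to 1.63 CPM. Egr2 had 0.0833 CPM in the C8.1 HPC library of wild type and 0.0962 CPM in the D10.1-2 HPC library of P2-CTCF-KO. Each of these Egr2 values is 1 count beside libraries at 0.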

How the results depend on the processing

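Of 3966 single values compared with an alternative, 3929 kept their side of the threshold, 29 lost a call and 8 gained one. Most of the 3966 were uncalled in the main fit, and only a called result can lose a call. Each called result had 9 alternatives and 23 fits that left out 1 library. Fosl2 in the mean of 3 genotypes lost its call in 2 and 8 of these, and Ier2 in P2-CTCF-KO in 0 and 0. A call was never reversed, but 177 uncalled estimates changed sign, such as Jund in P2-CTCF-KO against wild-type HPCs (0.02, and −0.52 without D10.1). Ier2 in P2-CTCF-KO cells was called under every alternative run. For mesoderm against undifferentiated mESCs the count of members called went from 1 to 0 with the undifferentiated libraries summed and without 2 mesoderm libraries (Jun 0.70, adjusted p = 0.275). For HPCs against undifferentiated mESCs it went from 1 to 0 in separate fits (adjusted p = 0.0608 for Jun) and with those libraries summed. Between mesoderm and HPCs it went from 0 to 1 in wild type with libraries of a clone summed (Fosl2 −1.71, adjusted p = 0.0383). In the mean of 3 genotypes it went from 2 to 1 without the 2 mesoderm libraries, where Jund alone was called (1.09), and to 4 with no fold limit. The causes were not tested. With the clone as a replicate block, 1 of 2 members stayed called in P2-CTCF-KO (Fos had an adjusted p of 0.0513) and 1 of 2 in the mean (Fosl2, adjusted p = 0.0553), and the block changed no other count of members called.

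With 1 library left out at a time, the count of members called ranged from 0 to 1 for both stages against undifferentiated mESCs, for HPCs against mesoderm in wild type and in P1-CTCF-KO, and for P2-CTCF-KO against P1-CTCF-KO HPCs. It ranged from 1 to 3 in P2-CTCF-KO and in the mean of 3 genotypes, and was 0 in the other genotype comparisons. Jun lost its call against undifferentiated mESCs without either undifferentiated library (adjusted p = 0.0720 and 0.127 in mesoderm, 0.0995 and 0.183 in HPCs). Fos in P2-CTCF-KO also lost it without the HPC library D2.1-2 or E9.1 (adjusted p = 0.0579 and 0.0550), and Egr1 gained one without D2.1 (−1.56). Where 1 undifferentiated library remained, it was taken to vary like the other groups.

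Members with a peak at the start numbered 6 within 250 bp for ATAC-seq in mesoderm (all genes, 48.7%). For ATAC-seq in HPCs they numbered 5 within 250 bp (32.1%), 10 within 5000 bp (44.2%) and 3 with wider peaks alone (27.1%), and for CTCF 0 within 250 bp (6.88%) and 6 within 5000 bp (32.2%). Low members rest on few counts, as Fosl2 had 0 to 44 counts per HPC library.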
